A study of Mus musculus with 12 samples.

Results

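Splicing factor and hnRNP genes were followed across the fundic mucosa of mice with and without the stomach hormone gastrin. The members were taken by gene name, under a rule set with earlier results of these data known. Every probe set was taken whose gene symbol begins with Srsf and a digit, Snrp, Snrnp, Hnrnp, Luc7l, Sf3a, Sf3b, Tra2, Prpf or U2af. Those of Sfpq, Tia1, Tial1 and Rbm6 were added. The rule gave 178 probe sets of 71 genes, out of 22626 probe sets and 12393 genes on the array. Each probe set reads a gene through several short probes, and many genes have more than 1 probe set. There were 47 member genes with more than 1 probe set, which held 154 of the 178, and 24 with a single one. A further 15 probe sets that name a member beside another gene were left out.

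Splicing removes introns from pre-mRNA in the spliceosome, which is built from small nuclear ribonucleoprotein particles (snRNPs) and many further proteins. SR proteins and their relatives Tra2a and Tra2b bind exonic enhancers and generally favour inclusion of an exon, while heterogeneous nuclear ribonucleoproteins (hnRNPs) coat nascent RNA and often repress splice sites. Genes of both families are known for regulating their own mRNAs through alternative exons, retained introns and alternative ends of the transcript, so one gene can give several transcripts that different probe sets see unequally.

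The study compared 4 groups of 3 arrays, each hybridised with labelled copies of total RNA from scrapings of the acid-secreting part of the stomach lining. Gastrin knockout (GKO) mice received either saline or gastrin by infusion. Wild-type (WT) mice and double knockouts (DKO), which lack cholecystokinin (CCK) as well as gastrin, made up the other groups. CCK is a related hormone that also binds the gastrin receptor. All 3 mutant groups lack the gastrin gene, and each infusion lasted 1 week. Male sex and an age of 2 months are given for the saline-infused knockouts, and neither is given for the other groups. Wild-type and double knockout mice are not described as infused, so infusion and genotype cannot be told apart wherever they are set against an infused group. Each wild-type RNA came from about 2 to 4 mice. It is not said whether the 3 RNAs of a group were of separate animals, so p-values here rest on a spread that may be technical. In scrapings of mixed cells, fewer cells of a type and less RNA per cell cannot be told apart.

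The array medians lay between 403 and 421 intensity units, and replicates correlated at 0.955 to 0.973 across probe sets on the log2 scale. Gast, the gastrin gene, read 318 to 823 in wild type and at most 37 on any knockout array. The Gapdh control has a 3' and a 5' probe set, whose ratio is a sign of RNA integrity. This ratio was 1.51, 2.00 and 0.983 in wild type, 1.01 to 1.18 in the saline-infused knockout, 1.17 to 1.21 in the gastrin-infused knockout and 1.29 to 1.32 in the double knockout. Defining markers of parietal, chief and surface mucous cells were well above the noise in every group. The summed level of 7 of 8 listed parietal markers was 188849 to 227971 in wild type, 135257 to 149521 in the saline-infused knockout, 197899 to 209637 in the gastrin-infused knockout and 126949 to 136999 in the double knockout. Wild-type sums of the 4 chief cell markers were 178182 to 215790, and double knockout sums 124088 to 132612. For the 5 surface mucous markers they were 385446 to 460178 and 277255 to 298715.

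The splicing genes were well measured: 150 of the 178 probe sets had a mean at or above the array-wide median of 417, and the median member read 1182. The means of 6 lay within the noise, 3 of them on every array. Among the hnRNPs the brightest probe set was 1424251_a_at of Hnrnpdl, which read 10867 ± 1205 (SD, n = 3) in wild type. Among SR genes it was that of Srsf5 (7084 ± 266), among snRNP genes that of Snrpe (6031 ± 793), and among the remaining classes those of Sf3b1, Prpf8, Luc7l2 and Tial1. Probe sets differ in how strongly they bind, so these values do not rank the genes.

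Against wild type, the double knockout had 15 of 178 member probe sets past the test, 13 higher and 2 lower, naming 14 genes. That is 8.43% of members, where 4.14% of all probe sets passed. Members are brighter than most probe sets, and bright ones pass more often: among probe sets at or above the median intensity 9.33% of 150 members passed, beside 6.39% of all such probe sets. The test was a linear model over all 12 arrays (limma) with Benjamini-Hochberg adjustment over the whole table and a threshold of 0.05 for the adjusted p. Against the saline-infused knockout, 12 member probe sets of 8 genes were higher and 0 lower, 6.74% of members beside 5.98% of all probe sets; among the bright ones it was 8% beside 9.74%. With bright probe sets fitted and adjusted alone, 12% of members passed against wild type, beside 11.5% of all, and 15.3% against saline, beside 16.1%. In that fit the members' shares were near the background. For rises alone the background was 2.02% and 3.22%, and the members' shares were 7.3% and 6.74%; for falls it was 2.12% and 2.76%. Among bright probe sets, rises were 8.67% and 8% of members, beside 3.06% and 5.1% of all. Of the 178, 49 had an unadjusted p under 0.05 against wild type and 52 against saline, where 19.6% and 21.5% of all probe sets did. The median member changed by 0.09 and 0.08 on the log2 scale, beside 0.00 over all probe sets in both comparisons. Without double knockout replicate 2 the member medians were 0.01 and 0.03. Leaving out wild-type replicate 1 or 3 moved the first to 0.06 or 0.05, and leaving out saline replicate 3 moved the second to 0.03. The comparisons share the double knockout arrays. Leaving out double knockout replicate 2 brought the 12 calls against the saline-infused knockout to 5, 2.81% of members beside 3.93% of all probe sets. Leaving out saline-infused replicate 1, 2 or 3 brought them to 7, 6 and 6. These are 3.93%, 3.37% and 3.37% of members, beside 2.61%, 2.67% and 3.79%. Without double knockout replicate 2 or saline-infused replicate 3 the members' share was thus below that of all probe sets. Leaving out double knockout replicate 3 brought the 15 calls against wild type down to 8, 4.49% beside 1.85%. Leaving out wild-type replicate 1 or 2 brought them to 9, 5.06% beside 1.47% and 1.78%. Without wild-type replicates 1 and 2, whose Gapdh ratios were highest, 3 members passed against wild type, where 0.336% of all probe sets did; among the 15 named here only Hnrnpc 1418693_at and Luc7l2 1436767_at (adjusted p = 0.0425) were still past the threshold. The third was Snrpn 1432096_at, a dim probe set that read 25 on the remaining wild-type array, within the noise, and lay at the floor of 16 on all 9 knockout arrays.

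The single arrays were also put in order, which needs no model. The values were used without scaling. Array medians were 415.5, 417 and 421 in the double knockout and 403 to 414 on the other 9 arrays. In 25 member probe sets all 3 double knockout arrays lay above all other 9 arrays, which is 14% of members, beside 3.96% of all probe sets. In 4 they lay below the other 9, 2.25% beside 3.42%. Among bright probe sets 16% of members lay above and 1.33% below, beside 5.95% and 5.47% of all. The 25 included 3 probe sets of Luc7l2, both of Luc7l3, 3 of Srsf1 and 2 of Srsf10.

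**Figure D1:**
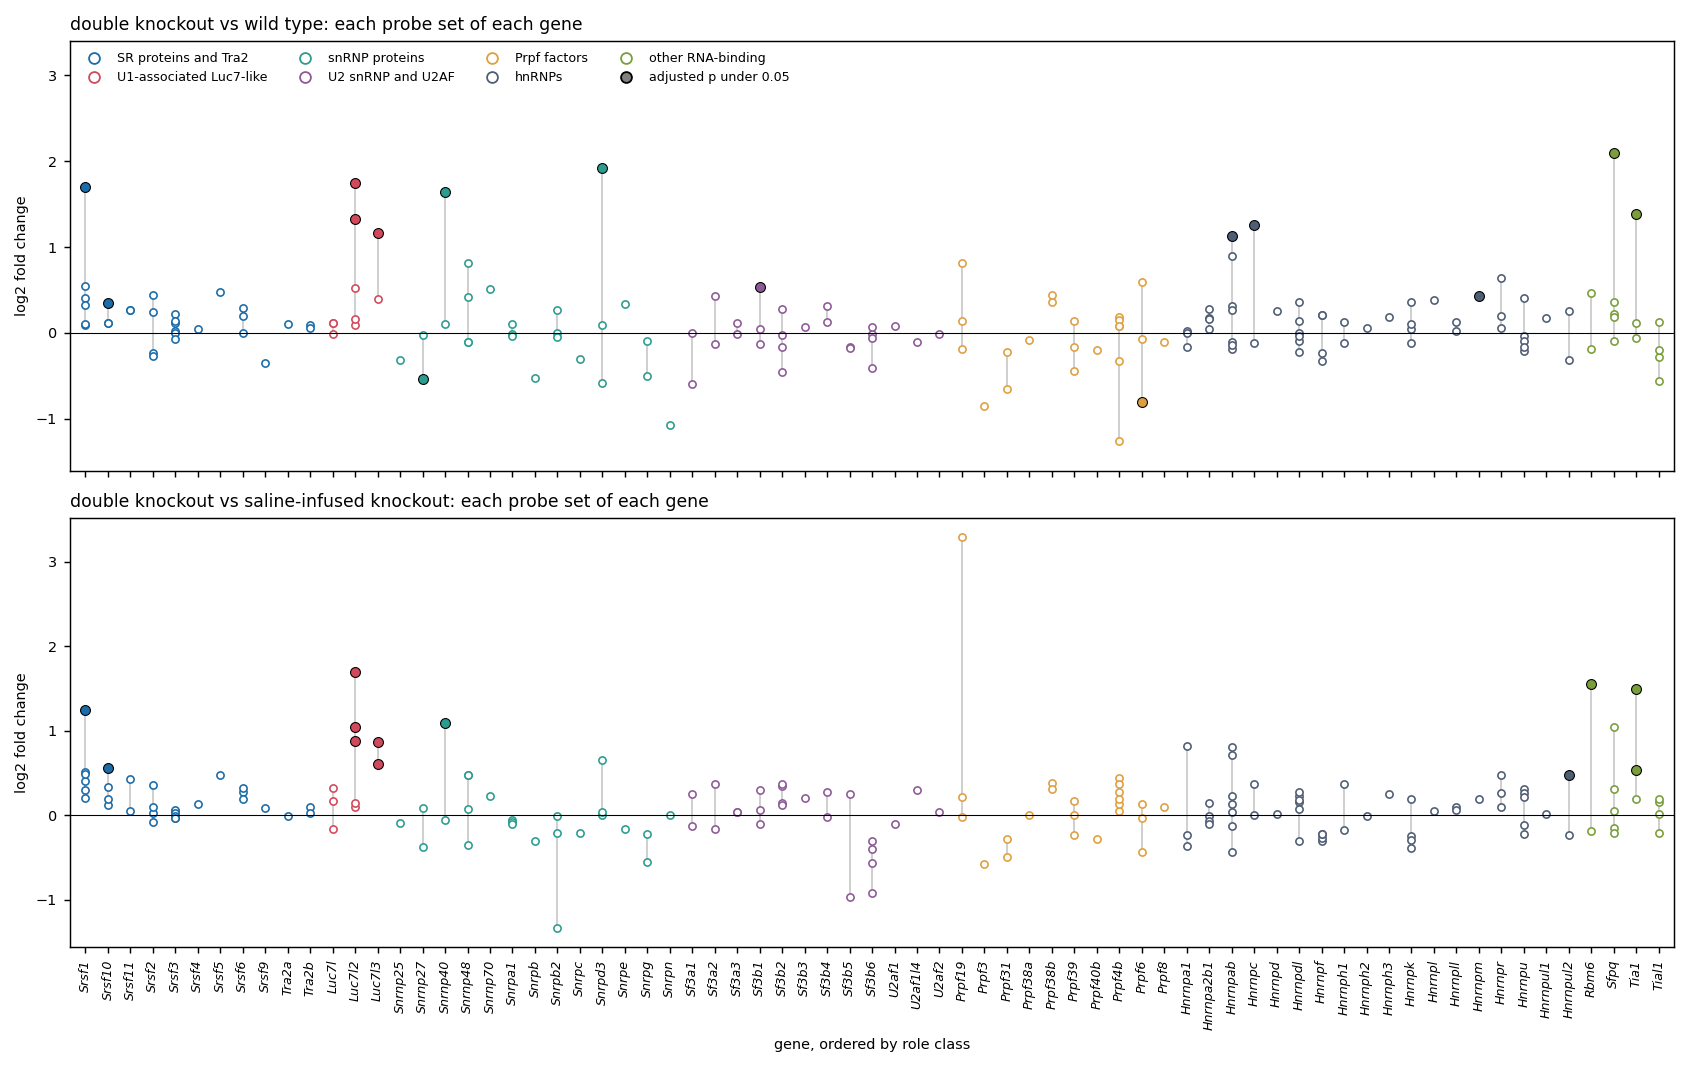
Log2 fold change (vertical axis) of each of the 178 probe sets in the double knockout against wild type (top) and against the saline-infused knockout (bottom), with a grey line joining the probe sets of a gene. Genes are ordered by role class and filled points passed the test; 13 of 15 filled points in the top panel and 12 of 12 in the bottom panel lie above 0, and the open point of Prpf19 at 3.29 in the bottom panel did not pass (adjusted p = 0.0759).

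Genes of the Luc7-like proteins, which attach to the U1 snRNP and help it recognise the 5' splice site, held the highest share of rises. Of their 10 probe sets, 3 rose against wild type and 5 against the saline-infused knockout. In each, 9 of 10 were positive, beside 51% and 48.8% of all probe sets, with class medians of 0.28 and 0.47. Luc7l2 has 5 probe sets. Probe set 1436767_at read 727, 734 and 687 in wild type, 507, 606 and 562 with saline, 726, 572 and 715 with gastrin, and 1598, 1867 and 1943 in the double knockout. The double knockout arrays stood far above the other 9, among which those with saline lay somewhat below wild type. The log2 fold change was 1.33 ± 0.12 (SE) against wild type (adjusted p = 0.00131) and 1.69 ± 0.12 against the saline-infused knockout (adjusted p = 0.000702), and it passed in all 12 fits that left out 1 array, in both comparisons.

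Luc7l2 1436766_at read 590, 509 and 928 in wild type, 979 to 1181 with saline, 927 to 1077 with gastrin and 1604, 2643 and 2503 in the double knockout, again with no overlap between the double knockout and the rest. It rose by 1.75 ± 0.24 against wild type (adjusted p = 0.00926) and by 1.05 ± 0.24 against saline (adjusted p = 0.04), the latter in only 3 of the 12 fits that left out 1 array (highest adjusted p = 0.106). Luc7l2 1436165_at rose against saline, 938 ± 75.3 against 513 ± 79 (0.88 ± 0.14, adjusted p = 0.0115), and read 658 ± 93.6 in wild type (0.52 ± 0.14, adjusted p = 0.0786). The brightest probe set of the gene, 1423251_at, read between 1884 and 2738 on all 12 arrays and did not separate the groups (0.10 and 0.09). Luc7l2 thus passed on 2 of 5 probe sets against wild type and 3 of 5 against saline.

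Luc7l3 was the only gene with more than 1 probe set in which every probe set passed, in the double knockout against the saline-infused knockout. Its bright probe set 1424802_a_at read 2783, 3057 and 2496 in the double knockout, 2033, 1652 and 1780 with saline, 1500 to 1742 with gastrin and 1873 to 2427 in wild type, so the double knockout lay above every other array. It rose by 0.61 ± 0.13 against saline (adjusted p = 0.0274) and stood at 0.40 ± 0.13 against wild type (adjusted p = 0.123). Luc7l3 1451485_at rose from 519 ± 44.7 in wild type to 1178 ± 275 (1.16 ± 0.19, adjusted p = 0.0165), and against saline by 0.86 ± 0.19 (adjusted p = 0.0334). The first of these was lost without wild-type replicate 1 or double knockout replicate 3 (highest adjusted p = 0.0566), and each of the 2 calls against saline in 4 of the 12 fits (highest adjusted p = 0.0849 and 0.0956). The 3 probe sets of Luc7l, the remaining relative, lay between -0.01 and 0.12 against wild type and between -0.16 and 0.32 against saline on the log2 scale, and did not pass.

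The 150 bases before the transcription start are shown for 4 genes (RefSeq, GRCm38.p6, 5' to 3' on the strand of the gene). In each, the same probe set passed as higher in the double knockout against both wild type and saline. Snrnp40 met this too but has no entry. Capitals mark matches, on either strand, to 5 short motifs that are named after them.
Luc7l2, chr6:38555573-38555722, plus strand: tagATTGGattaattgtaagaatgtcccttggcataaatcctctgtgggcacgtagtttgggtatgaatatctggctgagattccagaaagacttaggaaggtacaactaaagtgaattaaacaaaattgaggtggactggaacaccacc
Luc7l3, chr11:94321964-94322113, minus strand: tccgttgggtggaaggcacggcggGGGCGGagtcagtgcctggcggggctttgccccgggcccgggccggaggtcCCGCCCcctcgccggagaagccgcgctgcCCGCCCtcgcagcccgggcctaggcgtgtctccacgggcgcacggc
Srsf1, chr11:88047223-88047372, plus strand: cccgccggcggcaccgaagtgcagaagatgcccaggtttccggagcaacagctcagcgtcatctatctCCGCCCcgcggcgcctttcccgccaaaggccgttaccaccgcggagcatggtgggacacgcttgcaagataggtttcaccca
Tia1, chr6:86404069-86404218, plus strand: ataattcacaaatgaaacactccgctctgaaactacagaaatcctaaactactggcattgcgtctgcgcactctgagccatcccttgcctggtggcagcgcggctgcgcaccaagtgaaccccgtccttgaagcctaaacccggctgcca

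The 4 windows have little in common in these letters: that of Luc7l2 holds 1 CCAAT box and no GC box, that of Luc7l3 holds 3 GC boxes, that of Srsf1 holds 1, and that of Tia1 holds neither. Over the 63 member genes with an entry, 5 motifs were counted on both strands of the 250 bases before the start, none of which contains another. CCGGAAG, the core bound by ETS factors, was in 27% of member windows and in 11.6% of 9888 windows of genes on the array. CCAAT was in 47.6% and 35.8%, GGGCGG (the GC box) in 65.1% and 53.2%, TATAAA in 7.94% and 9.14%, and TGACGTCA (the cyclic AMP response element) in 3.17% and 2.32%. These are matches of letters and describe no binding.

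**Figure D2:**
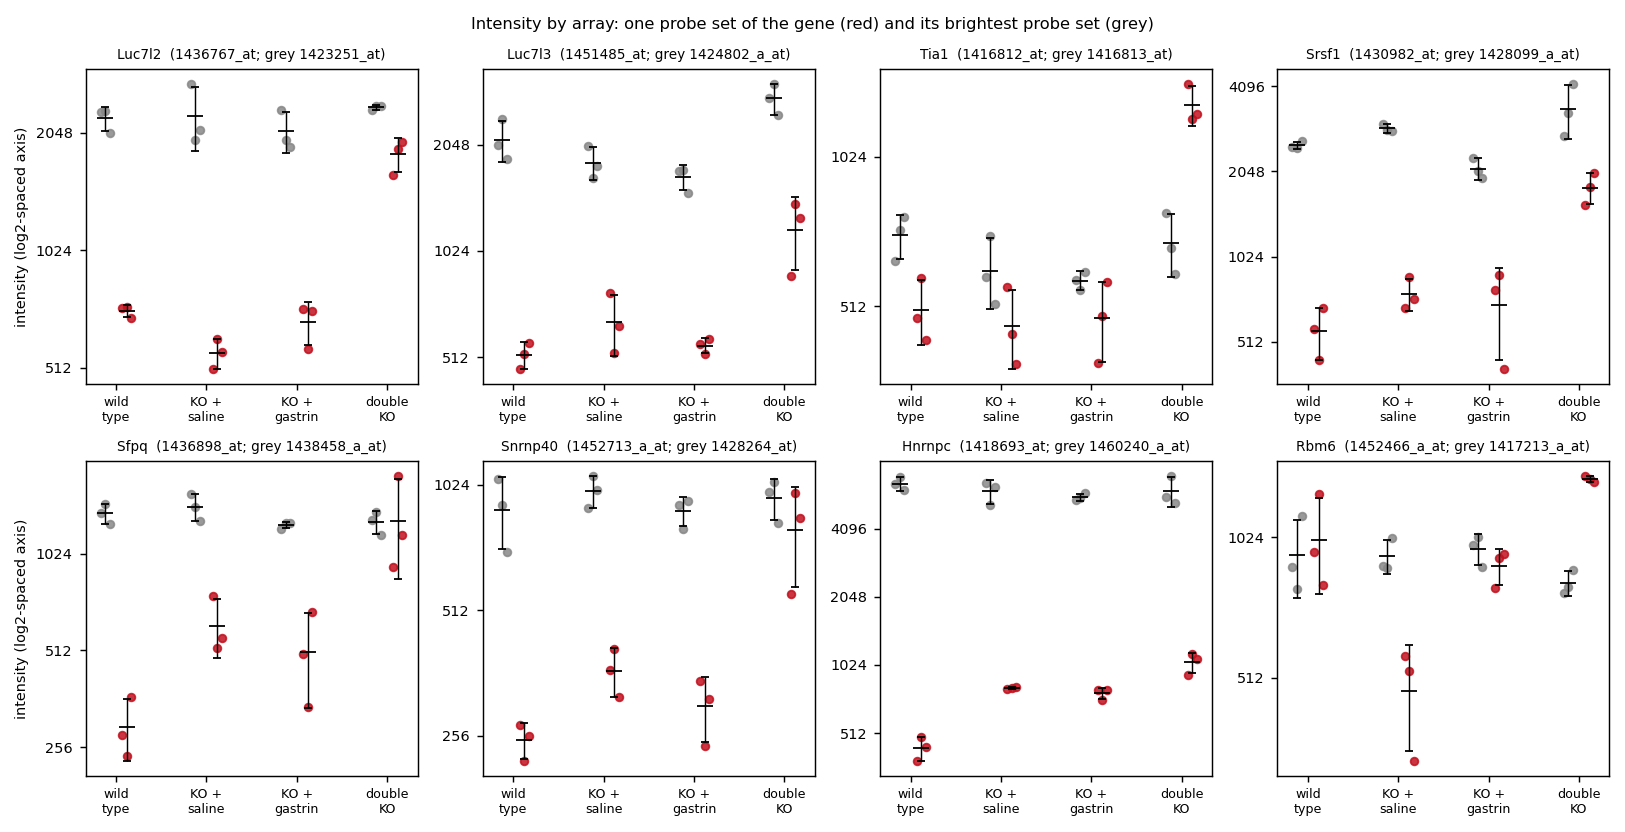
Intensity on each array (vertical axis, spaced by log2) for 1 probe set (red) and the brightest probe set (grey) of 8 genes in the 4 groups; bars are the mean and SD of 3 arrays. The red points of Tia1 in the double knockout (1219 to 1440) lie above its red points in the other groups (392 to 584), while its grey points read 517 to 791 in all groups; in Hnrnpc the red points of all 9 knockout arrays (720 to 1139) lie above those of wild type (384 to 490).

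SR proteins carry a domain rich in serine and arginine and recruit the U1 snRNP and U2AF to exons. Of the 31 probe sets of SR and Tra2 genes, 2 rose in the double knockout in each comparison and 0 fell. Positive were 25 and 26 of them, beside 51% and 48.8% of all probe sets, and the class medians were 0.12 and 0.13. Centring each array on its median left 24 and 23 of 31 positive and quantile normalization 26 and 24, while leaving out double knockout replicate 2 left 21 in each, with medians of 0.05 and 0.07. Srsf1, the founding member of the family, has 6 probe sets, all of them positive in both comparisons. Its probe set 1430982_at read 565, 439 and 671 in wild type, 674, 865 and 725 with saline, 778, 878 and 408 with gastrin and 1559, 1809 and 2015 in the double knockout. The double knockout arrays lay apart, while the other 3 groups overlapped. The rise was 1.70 ± 0.28 against wild type (adjusted p = 0.0166) and 1.25 ± 0.28 against saline (adjusted p = 0.0352), and the first was lost without wild-type replicate 1, wild-type replicate 2 or double knockout replicate 3 (highest adjusted p = 0.0529). The second was lost in 7 of the 12 fits (highest adjusted p = 0.101).

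The other 5 probe sets of Srsf1 did not pass one by one. The brightest, 1428099_a_at, read 3404 ± 735 in the double knockout, 2536 ± 74.1 in wild type and 2908 ± 96.8 with saline. Over the mean of all 6 probe sets, Srsf1 rose by 0.53 ± 0.12 against saline (adjusted p = 0.0445). Srsf10, an SR protein that acts as a repressor when dephosphorylated, rose on 1423982_at against wild type (738 ± 42.7 against 580 ± 44.6, 0.35 ± 0.07, adjusted p = 0.0372) and on its brightest probe set 1449121_at against saline (1050 ± 90.5 against 715 ± 108, 0.56 ± 0.14, adjusted p = 0.0492). Both calls were close to the threshold: the first passed in 2 of 12 fits that left out 1 array and the second in none of them (highest adjusted p = 0.103 and 0.126). Srsf5, with a single probe set, read 9875 ± 623 in the double knockout and 7084 ± 266 in wild type, with every double knockout array above the other 9, and did not pass.

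snRNP proteins form the core of the spliceosomal particles. Of their 25 probe sets, 2 rose and 1 fell against wild type and 1 rose against saline. The medians of this class were -0.03 and -0.06. Snrnp40, a subunit of the U5 snRNP, read 271, 222 and 255 on 1452713_a_at in wild type, 317 to 414 with saline, 242 to 346 with gastrin and 560, 978 and 852 in the double knockout. All 3 double knockout arrays were above the other 9. It rose by 1.64 ± 0.22 against wild type (adjusted p = 0.00802, passing in all 12 fits that left out 1 array) and by 1.09 ± 0.22 against saline (adjusted p = 0.0233, lost without saline replicate 1 or 3 or double knockout replicate 2 or 3, highest adjusted p = 0.067). Its brightest probe set, 1428264_at, stood at 0.10 and -0.06.

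Snrpd3, which encodes the core protein SmD3, read 625, 470 and 545 on 1422884_at in wild type, 1118, 1308 and 1523 with saline, 1828, 1315 and 1489 with gastrin and 1628, 2356 and 2266 in the double knockout. Every one of the 9 knockout arrays was above wild type, and the log2 fold change was 1.92 ± 0.19 in the double knockout (adjusted p = 0.00239, in all 12 fits that left out 1 array). The 2 further probe sets of Snrpd3 gave no such difference: 1449629_s_at read 393 to 793 over all 12 arrays, and 1422885_at lay within the noise. Snrnp27, a protein of the U4/U6.U5 particle, fell on its brighter probe set, 2317 ± 311 against 3349 ± 264 in wild type (-0.54 ± 0.11, adjusted p = 0.0359), and its other probe set stood at -0.03. That fall passed in 3 of 12 fits that left out 1 array (highest adjusted p = 0.101).

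The U2 snRNP and U2AF mark the branch point and the 3' splice site. Of their 25 probe sets of Sf3a, Sf3b and U2af genes, 1 rose against wild type and 0 passed against saline, where 11 had an unadjusted p under 0.05. The medians were -0.01 and 0.04. The rise was that of Sf3b1, the largest SF3B subunit, on 1418562_at, from 1377 ± 170 to 1994 ± 109 (0.54 ± 0.12, adjusted p = 0.0419, in 3 of 12 fits that left out 1 array, highest adjusted p = 0.117). Its brightest probe set read 4623 ± 497 and 4759 ± 338 in wild type and the double knockout. Averaged over its 4 probe sets Sf3b6, a branch-point binding subunit, fell by 0.55 ± 0.13 on the log2 scale against saline (adjusted p = 0.0458), although no single one passed. One of the 4, 1435508_x_at, read 26 to 72 in the double knockout and with saline, within the noise, and stood at -0.92, while the other 3 lay between -0.31 and -0.57. With gene means taken over probe sets above the noise level only, Sf3b6 stood at -0.43 ± 0.14 and did not pass (adjusted p = 0.104). Of 23 probe sets of Prpf genes, many of which serve the tri-snRNP or the catalytic steps, 1 fell against wild type. That was Prpf6 1454789_x_at, 260 ± 30 against 460 ± 91.1 (-0.81 ± 0.16, adjusted p = 0.0303, in 8 of 12 fits that left out 1 array, highest adjusted p = 0.0911), while its brightest probe set stood at -0.07. Against saline 0 of 23 Prpf probe sets passed, 6 had an unadjusted p under 0.05, and the class median was 0.10.

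Among the 50 probe sets of hnRNP genes, 3 rose against wild type and 1 against saline. Hnrnpc, whose product packages pre-mRNA in tetramers with uridine-rich sites, read 384, 490 and 443 on 1418693_at in wild type, 803, 806 and 815 with saline, 793, 720 and 797 with gastrin and 928, 1139 and 1087 in the double knockout. Wild type was the lowest group and the double knockout the highest, with no overlap between them and the infused groups in between. The rise in the double knockout was 1.26 ± 0.11 (adjusted p = 0.00115) and passed in all 12 fits that left out 1 array. It also passed when wild-type replicates 1 and 2 were both left out (adjusted p = 0.0156). The far brighter probe set of Hnrnpc, 1460240_a_at, read 5183 to 7022 over the 12 arrays and stood at -0.12.

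Hnrnpab, with 7 probe sets the gene with the most, rose on 1426114_at, which read 3021, 2810 and 3243 in wild type and 4371, 9820 and 6682 in the double knockout (1.13 ± 0.25, adjusted p = 0.0437). The saline-infused (5666 to 6696) and gastrin-infused arrays (4809 to 6475) were above wild type on this probe set too. The call passed in 1 of 12 fits that left out 1 array (highest adjusted p = 0.119), and double knockout replicate 1 lay below every infused knockout array. Hnrnpm, a regulator of exon skipping with a single probe set, rose from 1013 ± 76.6 to 1362 ± 110 (0.43 ± 0.08, adjusted p = 0.0313, in 7 of 12 fits). Hnrnpul2 rose against saline on its brighter probe set (3027 ± 164 against 2186 ± 125, 0.47 ± 0.10, adjusted p = 0.0287, in 7 of 12 fits), while its other one stood at -0.23. The 50 probe sets had medians of 0.08 and 0.06. The second did not keep its sign: it was -0.04, with 27 of 50 negative, without saline replicate 3, and 0.02 without double knockout replicate 2.

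Of the 14 probe sets of Tia1, Tial1, Sfpq and Rbm6, 2 rose against wild type and 3 against saline. Tia1, which encodes a U-rich RNA binding protein that stabilises U1 at weak 5' splice sites and also nucleates stress granules, read 485, 584 and 438 on 1416812_at in wild type, 560, 449 and 392 with saline, 393, 488 and 572 with gastrin and 1440, 1219 and 1251 in the double knockout. The other 3 groups overlapped, and every double knockout array stood well above them. The rise was 1.38 ± 0.18 against wild type (adjusted p = 0.0074) and 1.49 ± 0.18 against saline (adjusted p = 0.00422), both in all 12 fits that left out 1 array. Tia1 1416814_at rose against saline (496 ± 49.8 against 341 ± 28.7, 0.54 ± 0.11, adjusted p = 0.0287, in 8 of 12 fits) and read 458 ± 24.2 in wild type. The brightest, 1416813_at, read 517 to 791 in all groups, and the relative Tial1 had 0 of 4 probe sets past the test.

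Sfpq, a partner of NONO in paraspeckles and in splicing, read 280, 241 and 367 on 1436898_at in wild type, 522 to 756 with saline, 342 to 672 with gastrin and 930, 1790 and 1170 in the double knockout (2.10 ± 0.31, adjusted p = 0.0121, in all 12 fits that left out 1 array). Against saline the same probe set stood at 1.05 ± 0.31 and did not pass (adjusted p = 0.0863). The other 4 probe sets of Sfpq lay between -0.09 and 0.36 against wild type. Rbm6, which regulates alternative exons, read 1389, 1366 and 1346 on 1452466_a_at in the double knockout, 569, 529 and 339 with saline, 797, 926 and 942 with gastrin and 952, 1270 and 808 in wild type. The saline-infused arrays were the 3 lowest and the double knockout arrays the 3 highest of the 12. The rise against saline was 1.55 ± 0.21 (adjusted p = 0.00682, in all 12 fits that left out 1 array), while against wild type the difference was 0.46 ± 0.21 (adjusted p = 0.27). The other Rbm6 probe set read 779 to 1136 on all arrays.

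Whether the probe sets of a gene differed in their change was tested on the difference between the brightest probe set and each other one within an array, in which any scaling of the array cancels. Of 107 such member pairs in 47 genes, 10 passed in the double knockout against wild type, 9.35% beside 2.42% of 7987 pairs of all genes, and 5 passed against saline, 4.67% beside 2.18%. Among pairs with both probe sets at or above the median intensity it was 11.1% of 81 member pairs, beside 3.82% of all such pairs, against wild type and 4.94% beside 3.35% against saline. In 8 of the 10 and 4 of the 5 the dimmer probe set was the one relatively higher. Among the pairs of all genes that passed, it was so in 106 of 193 against wild type and 106 of 174 against saline. Of the member pairs, 28 and 26 had an unadjusted p under 0.05. The share of all pairs at that level is not given here, nor for the comparisons below. Against wild type these 8 pairs were in Hnrnpab, Hnrnpc, Luc7l2 (on 2 probe sets), Sfpq, Snrnp40, Srsf1 and Tia1, and against saline the 4 were in Luc7l2, Rbm6, Snrnp40 and Tia1. The widest gap among these was that of Sfpq, where 1436898_at gained 2.19 ± 0.31 on the brightest probe set (adjusted p = 0.0123). That of Hnrnpc was 1.38 ± 0.15 (adjusted p = 0.00445) and that of Tia1 1.44 ± 0.21 against wild type (adjusted p = 0.0123) and 1.31 ± 0.21 against saline (adjusted p = 0.0135). The pairs the other way were Snrpd3, with 2 pairs against wild type, and Sf3b5 against saline; in Sf3b5 and in 1 of the Snrpd3 pairs the dimmer of both was at the noise level, so its floored value sets part of the gap. Leaving out wild-type replicate 2, double knockout replicate 2 or double knockout replicate 3 brought the 10 down to 3, and leaving out wild-type replicate 1 to 5. Of all 7987 pairs, 58, 50, 58 and 63 passed in these fits. Against saline 2 pairs passed without saline replicate 2 or 3 or any 1 double knockout replicate. There 63 to 104 of all pairs passed. Without wild-type replicate 1 or 2 or gastrin-infused replicate 2 it was 3, where 139 to 162 of all pairs passed.

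**Figure D3:**
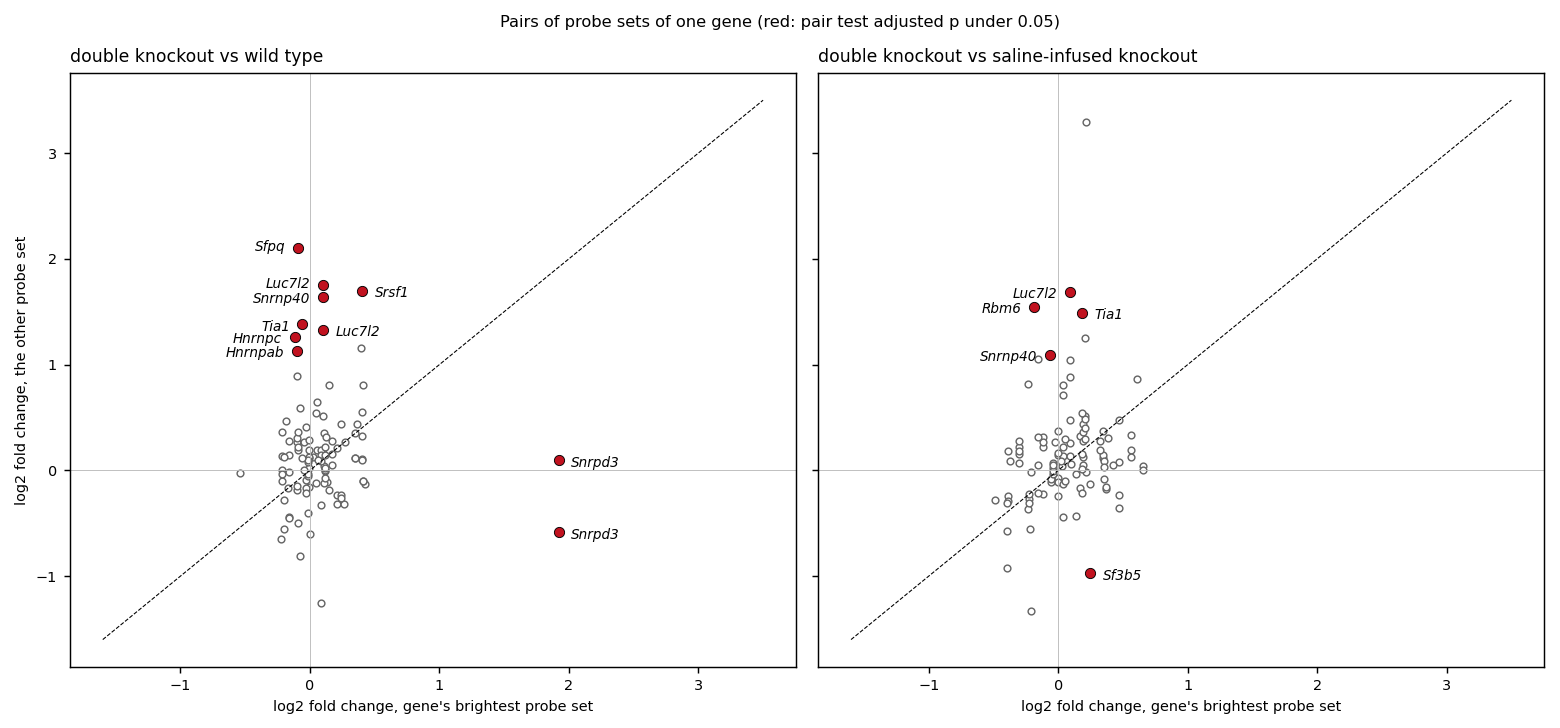
Each point is a pair of probe sets of 1 gene: the log2 fold change of the brightest (horizontal axis) against that of another (vertical axis) in the double knockout against wild type (left) and saline (right), with the dashed line marking equal change. Red pairs passed the pair test, 10 and 5 of 107, and in 8 and 4 of them the point lies above the dashed line.

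Most of the rises were on probe sets other than the brightest of the gene. Against wild type 11 of 107 non-brightest member probe sets rose, 1 of 47 brightest and 1 of 24 single ones, and against saline 9 of 107, 3 of 47 and 0 of 24. Calls in either direction were 11.2% of the non-brightest and 4.26% of the brightest members against wild type, beside 4.49% and 5.06% of such probe sets over all genes. Against saline they were 8.41% and 6.38%, beside 6.27% and 7.26%. The difference between these shares was not tested. Of the 47 genes with several probe sets, 17 had all of them on the same side of 0 against wild type and 20 against saline. The 2 probe sets of a pair shared their sign in 56.1% and 63.6% of member pairs, beside 57.3% and 57.1% of all pairs; among bright pairs these were 60.5% and 69.1%, beside 62.5% and 65.4%. When the probe sets of each gene were averaged first, 6 of 71 member genes passed in each comparison, beside 2.56% and 4.06% of 12393 genes. They were Hnrnpc, Hnrnpm, Tia1, Snrnp40, Luc7l2 and Luc7l3 against wild type, all higher, and Rbm6, Tia1, Srsf1, Luc7l2 and Luc7l3, higher, with Sf3b6, lower, against saline. With probe sets within the noise left out of the means, Sf3b6 did not pass against saline, which left 5 of 70 genes (5% of all genes passed); against wild type Snrpd3 passed and Hnrnpm did not (adjusted p = 0.052), again 6 genes, beside 3.1% of all. By gene, Luc7l2 rose by 0.77 ± 0.10 in each (adjusted p = 0.00974 and 0.00769), Luc7l3 by 0.78 ± 0.13 and 0.74 ± 0.13, and Tia1 by 0.48 ± 0.09 and 0.74 ± 0.09.

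The Gapdh ratio was higher in the double knockout than in the infused groups; how far each probe set lies from the 3' end of its transcript was not analysed here. With the ratio as a covariate, 12 member probe sets and 10 pairs passed against wild type and 11 probe sets and 4 pairs against saline. The probe sets were 6.74% and 6.18% of members, beside 2.68% and 4.03% of all probe sets. Of all 7987 pairs 197 and 110 passed. Parietal, chief and surface mucous marker sums were lower in the double knockout than in wild type. Chief and surface mucous sums were lower than with saline too, where they were 175377 to 197188 and 382663 to 455711, and the parietal sums overlapped. In the double knockout 7 stromal and smooth muscle markers summed to 6961 to 13250, against 15784 to 17868 in wild type and 9200 to 16727 with saline. The sum of 5 of 6 proliferation markers overlapped among the 3 groups, at 8441 to 13475, 8842 to 9997 and 9573 to 12888. Their part in the result was not tested.

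Setting saline-infused knockouts against wild type addresses the loss of gastrin, with infusion itself part of the difference. Of 178 member probe sets 4 passed, 3 higher and 1 lower, 2.25% beside 2.08% of all probe sets (0.707% higher and 1.37% lower), and 0 of 107 pairs passed (0.0501% of all pairs did, and 22 member pairs had an unadjusted p under 0.05). The share of members is near the background, and 40 members had an unadjusted p under 0.05, beside 17.8% of all probe sets. The median member stood at 0.00, and 51.1% were positive, as were 51.1% of all probe sets. Hnrnpc 1418693_at rose to 808 ± 6.24 from 439 ± 53.1 (0.89 ± 0.11, adjusted p = 0.00996), in all 12 fits that left out 1 array, and was lost when wild-type replicates 1 and 2 were both left out (adjusted p = 0.0593). Snrpd3 1422884_at rose by 1.27 ± 0.19 (adjusted p = 0.0181), and was lost without wild-type replicate 2 or saline replicate 2 or 3 (highest adjusted p = 0.0662). Snrpe, which encodes the core protein SmE, rose from 6031 ± 793 to 8457 ± 293 on its single probe set (0.50 ± 0.09, adjusted p = 0.0364), in 2 of 12 such fits (highest adjusted p = 0.092). Rbm6 1452466_a_at fell to 479 ± 123 from 1010 ± 236 (-1.09 ± 0.21, adjusted p = 0.0404), in none of the 12 (highest adjusted p = 0.109). By gene mean 2 of 71 passed, beside 2.05% of all genes: Snrpe rose and Rbm6 fell (-0.54 ± 0.08, adjusted p = 0.0195).

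Gastrin infusion against saline infusion addresses the effect of the hormone in the knockout, with both arms infused. Tra2b, which promotes inclusion of exons with GA-rich enhancers, was the single member past the test. On 1419543_a_at it read 1576, 1437 and 1587 with gastrin, 2160, 2479 and 2174 with saline, 2071, 2439 and 2276 in wild type and 2265, 2582 and 2405 in the double knockout. The gastrin-infused arrays were the 3 lowest of the 12 and overlapped with no group. The fall was -0.57 ± 0.09 (adjusted p = 0.0299), 1 of 178 or 0.562% of members, beside 1.25% of all probe sets; 0.473% of all fell. Of the members 25 had an unadjusted p under 0.05, beside 16% of all probe sets. The fall passed in 6 of 12 fits that left out 1 array, and was lost without any 1 array of the infused groups and when wild-type replicates 1 and 2 were both left out (highest adjusted p = 0.0911).

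The other Tra2b probe set, 1427432_a_at, read 2801, 2803 and 2529 with gastrin and 3613, 3460 and 3788 with saline, and did not pass (-0.42 ± 0.10, adjusted p = 0.0817). By gene mean 2 of 71 passed, beside 2.06% of all genes. Averaged, the 2 Tra2b probe sets gave a fall of 0.49 ± 0.08 on the log2 scale (adjusted p = 0.031). Tra2a, the paralogue of Tra2b, read 556, 590 and 512 with gastrin and 1023, 641 and 968 with saline on its single probe set (-0.64 ± 0.19, adjusted p = 0.139), likewise without overlap. Rbm6 was the other gene, and rose by 0.49 ± 0.08 (adjusted p = 0.0317), its probe sets standing at 0.92 ± 0.21 (adjusted p = 0.0717) and 0.05. No pair passed among 107 (0.0125% of all pairs did, and 5 member pairs had an unadjusted p under 0.05).

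Under gastrin the members leaned to the lower side: 30.9% of the 178 were positive, beside 48.4% of all probe sets (among bright ones, 29.3% beside 48.1%), and the median member stood at -0.07. The SR and Tra2 class stood lowest, with 26 of 31 probe sets negative and a median of -0.20. All probe sets were negative in Srsf1 (6 probe sets), Srsf3 (6), Srsf10 (4), Srsf2 (4) and Tra2b (2), while Srsf9 stood at 0.24. The single probe set of Srsf4 stood at 0.03, and the mean over the 3 of Srsf6 at 0.12. Without gastrin-infused replicate 2, 19 of 31 were negative with a median of -0.14, without gastrin-infused replicate 3 24 were negative with a median of -0.12, and 26 and 25 were negative with centring on array medians and quantile normalization. Gastrin-infused replicate 2 also had the lowest median over the members, 9.87 on the log2 scale. It was 10.07 and 10.10 on the other 2 gastrin-infused arrays and 10.04 to 10.18 with saline. The hnRNP class stood at -0.12 with 13 of 50 positive (-0.07 with 14 positive without gastrin-infused replicate 2), the snRNP class at -0.12 with 7 of 25 positive, and the Prpf and U2 classes at -0.01 and -0.03. Pairs of probe sets of a member gene shared their sign in 71% of cases, beside 59.4% of all pairs; among pairs with both probe sets bright it was 77.8% of 81 beside 71.9%. The sum of 5 of 6 proliferation markers was 6592 to 7698 with gastrin and 9573 to 12888 with saline, and that of 8 forestomach markers 4959 to 21065 and 11690 to 44118. With gastrin the sums were higher for parietal markers (197899 to 209637 against 135257 to 149521), for 3 of 4 enterochromaffin-like markers (14788 to 22341 against 2484 to 2826) and for stromal and smooth muscle markers (16795 to 27002 against 9200 to 16727). Their part in the lean was not tested.

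Gastrin-infused knockouts were also set against wild type, a comparison in which infusion itself is part of the difference. Of 178 members 2 passed, 1.12% beside 0.11% of all probe sets (0.0663% higher and 0.0442% lower), and 31 had an unadjusted p under 0.05, beside 11.6%. By gene mean 0 of 71 passed, beside 0.0888% of all genes, and 9 had an unadjusted p under 0.05. The 2 were Hnrnpc 1418693_at, which rose to 770 ± 43.3 from 439 ± 53.1 (0.82 ± 0.11, adjusted p = 0.0307), and Snrpd3 1422884_at, which rose to 1544 ± 261 from 547 ± 77.5 (1.49 ± 0.19, adjusted p = 0.0307). They passed in 3 and 5 of 12 fits that left out 1 array (highest adjusted p = 0.0995 and 0.0969). No pair passed (0.0376% of all pairs did, and 14 member pairs had an unadjusted p under 0.05). Over the 178 members 30.9% were positive, with a median of -0.12, beside 49.6% of all probe sets. Of the SR and Tra2 probe sets 28 of 31 were negative, with a median of -0.22. Without gastrin-infused replicate 2, 25 of the 31 were negative, with a median of -0.16. Without wild-type replicates 1 and 2, 24 were negative, with a median of -0.12. The comparison shares its gastrin-infused arrays with the one before.

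Between gastrin-infused and saline-infused knockouts, Hnrnpc 1418693_at differed by -0.07 ± 0.11 and Snrpd3 1422884_at by 0.23 ± 0.19 (adjusted p = 0.816 and 0.624). Their level with gastrin was thus nearer to that with saline than to wild type. In 4 member probe sets all 9 knockout arrays lay above all 3 wild-type arrays, those 2 with Hnrnpab 1426114_at and Prpf6 1426026_at, and in 2, of Prpf4b and Sf3b5, below. These are 2.25% and 1.12% of members, beside 1.02% and 1.43% of all probe sets.

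**Figure D4:**
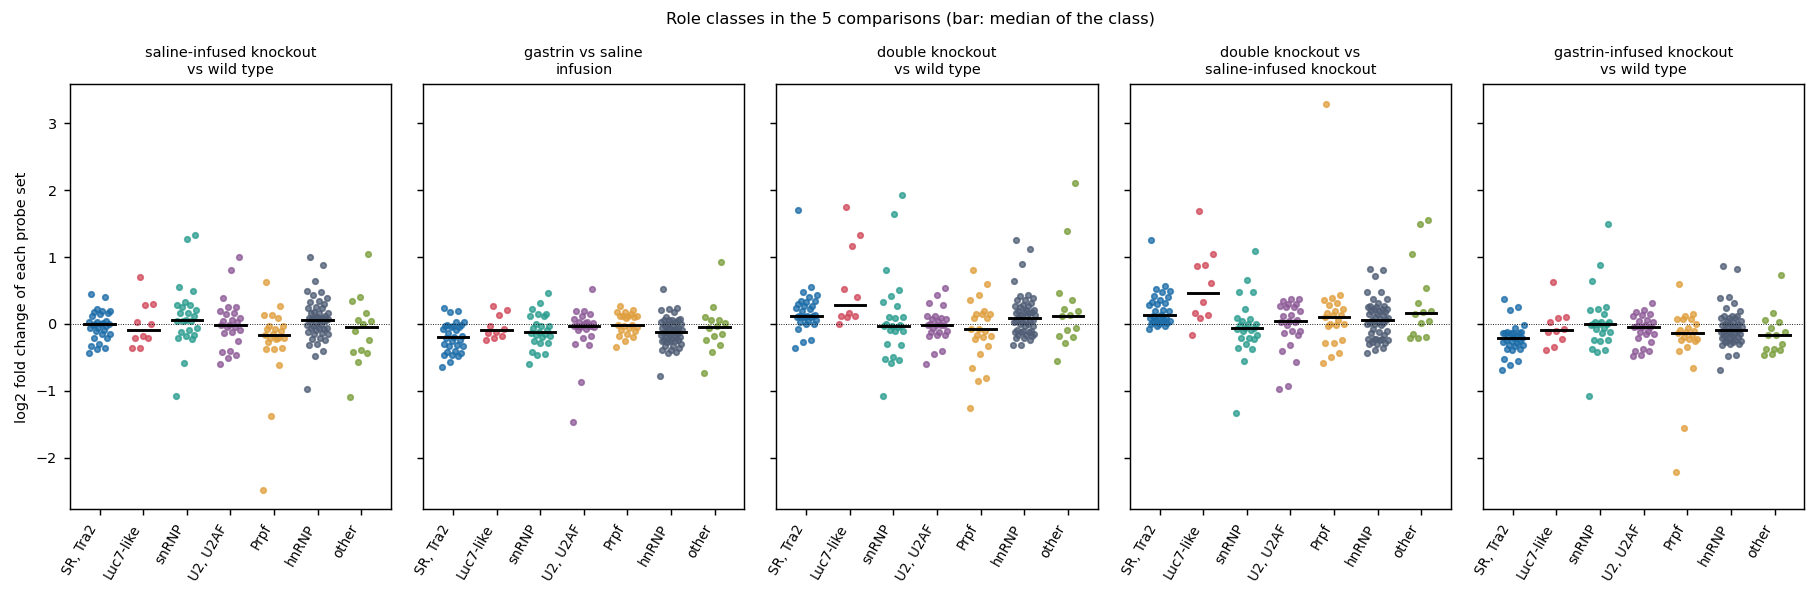
Log2 fold change of each member probe set (vertical axis) by role class (horizontal axis) in the 5 comparisons, with a bar at the class median. The Luc7-like class has medians of 0.28 and 0.47 in the 2 double knockout panels, and the SR and Tra2 class medians of -0.20 and -0.22 in the 2 panels of the gastrin-infused knockout.

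Splicing genes outside the rule were taken from lists of 131 genes, of which 107 were measured on 244 probe sets. In the double knockout 12 rose and 3 fell against wild type, and 20 rose and 5 fell against saline. These are 6.15% and 10.2%, beside 4.14% and 5.98% of all probe sets. Among probe sets at or above the median intensity, 6.39% and 9.74% of all passed. Most of the rises were among 41 measured regulators of alternative splicing. Of their 118 probe sets 11 were higher and 1 lower against wild type, and 16 higher and 1 lower against saline. Over all probe sets 2.02% and 3.22% were higher in these comparisons. Rbm39, a U2AF-like factor, had 4 of 9 probe sets higher and 1 lower in each, led by 1442744_at (411 against 37.3 in wild type, where it lay within the noise, adjusted p = 0.00115). Son, a speckle scaffold, rose by 0.89 ± 0.10 and 0.74 ± 0.10 on 1420952_at, and Celf2, which binds GU-rich sites, by 0.98 ± 0.12 and 1.10 ± 0.12 on 1423895_a_at. The 15 probe sets of kinases that phosphorylate SR proteins had 0 calls in the double knockout, where 5 and 4 had an unadjusted p under 0.05 and the medians were 0.06 and 0.18. Of 30 probe sets of the exon junction and SMN complexes 0 passed against wild type (1 with an unadjusted p under 0.05) and 2 rose against saline. Of 81 probe sets of further spliceosome components, 1 rose and 2 fell against wild type, and 2 rose and 4 fell against saline. Between gastrin and saline infusion 1 of the 244 passed, 0.41% beside 1.25% of all probe sets. Between saline infusion and wild type 3 passed, 1.23% beside 2.08%. The former was Ddx46 1424569_at, also among the latter. It read 70.3 with gastrin and -2.33 with saline, both within the noise, so its floored value sets part of the change.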

How the data were processed

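Each sample has 1 deposited column of intensity per probe set, linear and in part below 0. The authors' scaling and probe-set summary were not given in the sources used here. After 64 controls were taken out of 22690 rows, values were floored at 16 (35 of 2136 member values were lower) and taken to log2 with no further scaling. Gene names come from the platform annotation: 20380 probe sets had 1 symbol, 691 several and 1555 none. All 178 members matched the GRCm38.p6 gene table.

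A model with 1 mean per group was fitted over 12 arrays (limma 3.58.1, R 4.3.3), with Benjamini-Hochberg adjustment over all probe sets or all 7987 pairs. A pair is a gene's brightest probe set, by mean log2 value, and another of that gene. Both tests were run on simulated data first. Every member or pair past a test is named, with the brightest of each class, up to 3 genes whose probe sets moved together and up to 4 listed genes per comparison; other names were chosen after their values were seen. The members and lists were chosen with earlier results of these data known. Noise is the 1st percentile of an array with its sign turned (67 to 96). Replicate numbers did not pair the samples. Alternatives were the scaling, a filter on dim probe sets, the floor, a replicate block, the Gapdh ratio as a covariate and leaving out each array; gene means, with and without probe sets at the noise level, and leaving out wild-type replicates 1 and 2 were added after seeing the data. The number of arrays limits the precision.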

Additional observations from a re-analysis of the deposited data

How the results depend on the processing

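No probe set that passed turned direction under any alternative tried: of these values, 469 kept their side of the threshold and 210 lost it. Among the SR, hnRNP and Luc7-like class medians, the only ones computed under the alternatives, those that turned were that of the hnRNPs in the double knockout against saline (0.06, and -0.04 without saline replicate 3) and those of the Luc7-like genes between gastrin and saline (-0.10, and 0.00 without saline replicate 1), between gastrin and wild type (-0.09, and 0.01 without gastrin-infused replicate 2) and between saline and wild type (-0.09, and 0.02 with the Gapdh ratio as a covariate). The SR median between saline and wild type, 0.00, lay on either side of 0. Counts follow in the order saline against wild type, gastrin against saline, double knockout against wild type, double knockout against saline, and gastrin against wild type. Members past the test numbered 4, 1, 15, 12 and 2, and pairs 0, 0, 10, 5 and 0. Leaving out 1 array at a time gave 1 to 3, 0 to 2, 8 to 13, 5 to 12 and 0 to 2 members. The members' shares were 0.562% to 1.69%, 0% to 1.12%, 4.49% to 7.3%, 2.81% to 6.74% and 0% to 1.12%. All probe sets passed at 0.415% to 2.36%, 0.296% to 1.17%, 1.43% to 3.12%, 2.19% to 5.53% and 0.0575% to 0.19% in these fits. In the double knockout comparisons 3 to 10 and 2 to 5 member pairs passed, where 50 to 183 and 63 to 162 of all pairs did. Without wild-type replicates 1 and 2, the lone wild-type array being assumed to vary like the other groups, 2, 0, 3, 8 and 1 members and 0, 0, 1, 3 and 0 pairs passed. With the filter at the median intensity the counts were 8, 4, 18, 23 and 3 members and 3, 0, 14, 14 and 3 pairs, over fewer probe sets tested. The members were 5.33%, 2.67%, 12%, 15.3% and 2% of the 150 that remained, beside 7.31%, 6.23%, 11.5%, 16.1% and 0.654% of all that remained. A floor of 64 gave 5, 2, 16, 14 and 3 members and 1, 0, 11, 9 and 2 pairs. These members were 2.81%, 1.12%, 8.99%, 7.87% and 1.69%, beside 2.73%, 1.68%, 5.04%, 6.74% and 0.274% of all probe sets. Of all pairs 6, 5, 278, 301 and 8 passed. A floor of 1 gave 4, 1, 15, 11 and 2 members. They were 2.25%, 0.562%, 8.43%, 6.18% and 1.12%, beside 1.89%, 1.06%, 3.31%, 5.3% and 0.146% of all. Quantile normalization gave 5, 2, 19, 18 and 3 members, and centring on array medians 2, 1, 12, 10 and 2. The Gapdh ratio as a covariate gave 2, 1, 12, 11 and 0. With quantile normalization 2.81%, 1.12%, 10.7%, 10.1% and 1.69% of members passed, beside 3.3%, 2.62%, 4.68%, 6.53% and 0.225% of all. With centring it was 1.12%, 0.562%, 6.74%, 5.62% and 1.12%, beside 1.26%, 0.875%, 2.86%, 4.76% and 0.115%. With the Gapdh ratio it was 1.12%, 0.562%, 6.74%, 6.18% and 0%, beside 0.208%, 0.672%, 2.68%, 4.03% and 0.053%. The cause of these shifts was not tested.

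The replicate numbers do not pair the samples: deviations of same-numbered arrays correlated at -0.125 to 0.197 over 18 pairs, and 4 of 12 arrays correlated best with their own number. With the replicate number as a block, 3, 1, 10, 8 and 0 members and 0, 0, 8, 3 and 0 pairs passed. The members were 1.69%, 0.562%, 5.62%, 4.49% and 0%, beside 1.06%, 0.619%, 3.11%, 5.06% and 0.0354% of all probe sets. Of all pairs 0, 0, 106, 104 and 0 passed.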
